A study of Homo sapiens with 6 samples.

Results

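The ATP-binding cassette (ABC) genes are described here in MOC2, a line of mouse oral squamous carcinoma cells, with and without a CRISPR/Cas9 lesion aimed at HuR. The members are every row of the count table whose symbol is Abc followed by a subfamily letter from a to g, a number and at most 1 further letter, and they number 50 of 21872 gene rows. There were 3 libraries of HuR knockout cells and 3 of control cells. Per the labels' protocols both groups had been exposed to lentiviral particles, which carried the HuR CRISPR/Cas9 construct or a control, and a single clone was isolated for loss of HuR. The knockout group is thus a model of 1 clone as far as the labels go, its titles call it knockdown, and nothing says that its 3 libraries came from separate clones. The p-values therefore reflect only how these libraries vary, and some of that variation may be technical. Human is named as species in the labels, whereas the symbols and the series title are those of mouse. HuR, the product of Elavl1, binds AU-rich elements of mRNAs and is known to stabilise many of them.

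ABC proteins bind and hydrolyse ATP in a pair of nucleotide-binding domains and, in most members, use that energy to move a substrate across a membrane. Subfamily A moves lipids, subfamily B holds P-glycoprotein and several mitochondrial and peptide transporters, subfamily C holds the multidrug resistance proteins and channel regulators, subfamily D works in peroxisomes and lysosomes, and subfamily G moves sterols and drugs. Subfamilies E and F have no membrane domain and act on ribosomes and translation. In carcinoma cells the family is best known for the export of drugs and of glutathione conjugates.

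Library totals lay between 16746166 and 20097377 counts in knockout and between 16158516 and 21294330 in control. Levels are given as CPM, counts per 1000000 of the scaled library total, which grow with transcript length as well as with abundance, so they are compared between groups and not between genes. Libraries 1, 2 and 3 of a group are always given in that order. The targeted gene, Elavl1, had 116, 114 and 105 CPM in knockout and 107, 120 and 117 CPM in control, which does not check the labels, since an edited mRNA can keep its level. Knockout library 3 correlated with knockout libraries 1 and 2 at 0.924 and 0.931 in log2 CPM across genes, below the 0.978 between those libraries. Fewer cells of a kind and less RNA per cell cannot be told apart in such bulk libraries. The 9 markers fixed for the labelled epithelial cell type summed to 8488, 6305 and 5807 CPM in knockout and 13372, 12052 and 10898 CPM in control. Of the 8 tested, 5 fell, Epcam and Cdh1 among them, and 1 rose, against 15.4% and 20.3% of all genes tested. Krt14 and Krt19 did not pass, Krt19 with overlap. Krt5, the marker without a test, was at 2.29, 0.490 and 0.184 CPM in knockout and 0.0468, 0.0491 and 0 CPM in control. The marker that rose, Trp63, was at 0 in every control library, so it entered the test through its knockout counts and had to be higher. Its counts had been divided by 11, as described under processing. The 8 fibroblast markers summed to 176 to 214 CPM in knockout and 3.00 to 7.86 CPM in control, mostly Col1a1 and Pdgfrb in knockout, which both rose, and mostly Col1a1 and Pdgfra in control. Pdgfra did not pass, and Pdgfrb, below about 0.52 CPM in every control library, entered the test through its knockout counts and had to be higher. Lum was at 0 in every library and Col1a2 at no more than 0.122 CPM. The 8 macrophage markers summed to 3.27, 1.81 and 37.1 CPM in knockout and 2.41 to 6.51 CPM in control, nearly all from Cd68, with Adgre1 and Itgam at 0 in every library and Ptprc at 0 in every knockout library. The 7 endothelial markers summed to at most 1.96 CPM.

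Of the 50 ABC genes, 43 had a count in some library and 29 passed the filter on low counts and were tested. The test was edgeR's quasi-likelihood test of knockout against control, fitted to all 12293 genes that passed the filter, with a threshold of 0.05 on p-values adjusted over all of them. Among the 29, 11 genes were higher and 2 were lower in knockout, while 16 did not pass. Over all genes tested, 35.7% changed, 20.3% higher and 15.4% lower; among the ABC genes tested the shares were 44.8%, 37.9% and 6.90%. The median log2 fold change was 0.22 over the ABC genes tested and 0.03 over all genes tested. The shares and the median carry an effect of the filter and are no support for a rise of the family. With a minimum of 1 CPM in 3 libraries, where Abca1 and Abca6 were no longer tested, the median was -0.07. With no filter beyond a count in any library it was 0.395. In 4 of the 11 higher genes (Abca1, Abca6, Abca9 and Abcd2) no control library reached the filter's minimum, and in Abca8b only 1 did, so these 5 entered through their knockout counts and had to be higher. Of the 24 others, 6 were higher and 2 lower. A change of at least 2-fold was seen in 8 higher and 1 lower ABC genes, against 13.2% and 9.43% of all genes tested. Without knockout library 3, 12 ABC genes were higher and 9 lower; without control library 1, 2 or 3, 7, 5 and 5 were higher and 1 was lower each time. The number of genes changed over the whole table fell likewise to 2685, 2312 and 2358 without control library 1, 2 or 3, against 4392 with all libraries. Leaving out knockout library 1 gave 5 ABC genes lower, and leaving out knockout library 2 gave 1. Abca9, Abcc10, Abcc4 and Abcd2 kept their calls in all 16 alternative analyses.

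**Figure D1:**
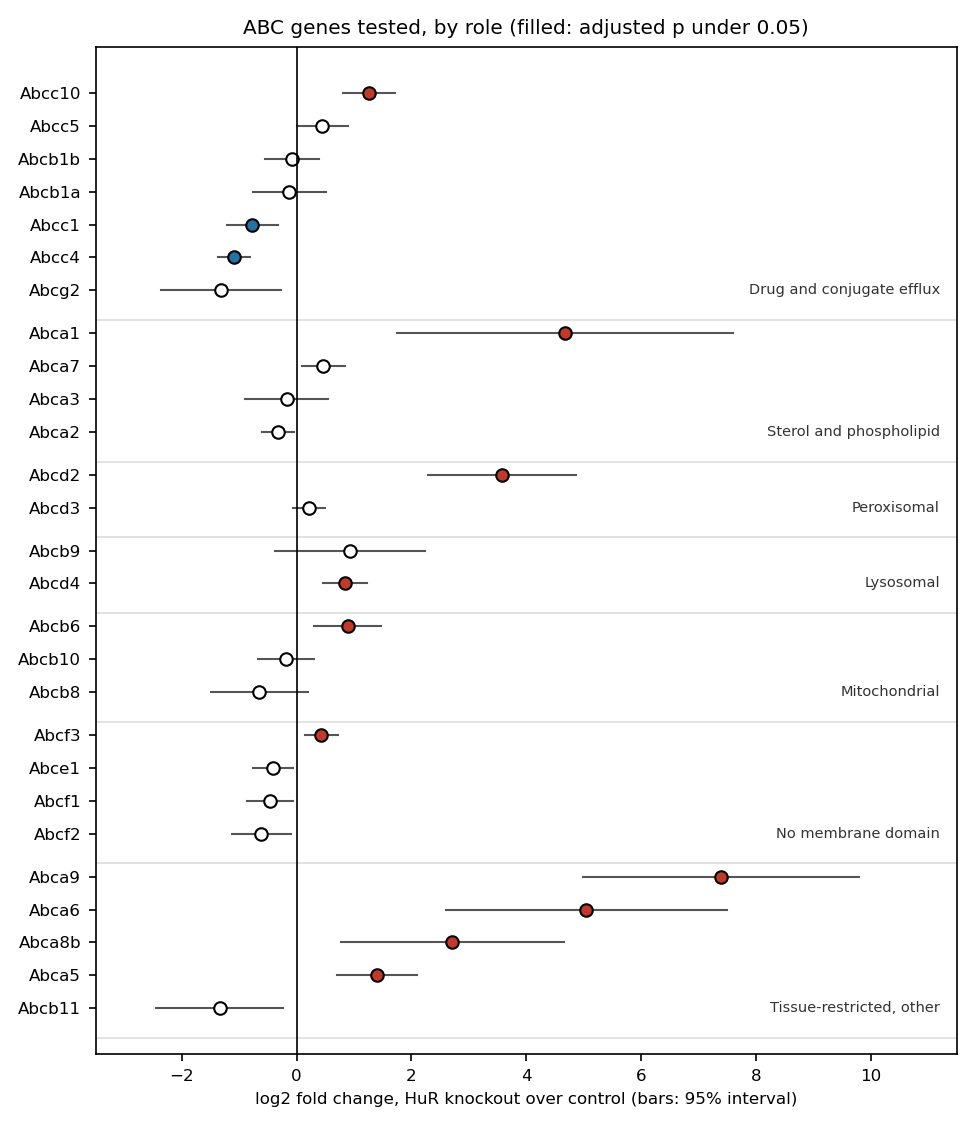
Of the ABC genes with enough counts to test, 27 are shown, grouped by role. The horizontal axis is the log2 fold change of HuR knockout over control with its 95% interval, and filled points passed the threshold of 0.05, in red where higher and in blue where lower in knockout. Abca9, Abca6, Abca1 and Abcd2 lie farthest to the right with wide intervals, and Abcc1 and Abcc4 are the filled points left of 0.

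Of 10 genes of drug and conjugate efflux 7 were tested: Abcc10 was higher, Abcc1 and Abcc4 were lower, and Abcg2, Abcc5, Abcb1a and Abcb1b did not pass. With 1 of 7 higher and 2 of 7 lower, against 20.3% and 15.4% of all genes tested, these counts are not a result about the role. Abcc4 encodes MRP4, an exporter of cyclic nucleotides, prostaglandins and drugs. It was at 66.9, 59.5 and 60.5 CPM in knockout and at 123, 133 and 143 CPM in control. Its groups lay far apart, with little spread inside either. Its log2 fold change was -1.09 (SE 0.117, adjusted p = 0.00117), a level 2.13-fold lower.

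Abcc1 encodes MRP1, which exports glutathione conjugates such as leukotriene C4. The level was 142, 95.4 and 95.7 CPM in knockout and at 189, 181 and 199 CPM in control, with knockout library 1 the closest to control and no overlap. The log2 fold change was -0.77 (SE 0.186, adjusted p = 0.0201), or 1.71-fold lower. The call was lost without knockout library 2 (adjusted p = 0.0587) and without control library 1, 2 or 3 (0.0653, 0.0582 and 0.0725), within a range of 0.000876 to 0.228 over all alternatives. Its log2 fold change stayed between -0.99 and -0.67 in them.

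Abcc10 encodes MRP7, an exporter known for taxanes. In contrast to Abcc1 and Abcc4 it was higher, at 14.7, 13.3 and 13.3 CPM in knockout and 6.55, 5.06 and 5.59 CPM in control. Knockout libraries were close to each other and all were above control. On the log2 scale the fold change was 1.26 (SE 0.191, adjusted p = 0.00374), a 2.39-fold rise. Abcc5, which encodes the nucleotide exporter MRP5, was at 40.1, 38.2 and 53.7 CPM in knockout and 34.9, 27.6 and 34.1 CPM in control, without overlap, and did not pass (log2 fold change 0.45, 95% interval 0.01 to 0.89, adjusted p = 0.0992).

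Abcg2 encodes the breast cancer resistance protein, a drug and urate exporter also known as a marker of side population cells. Its level was 9.64, 8.38 and 2.76 CPM in knockout and 18.4, 17.0 and 16.4 CPM in control. All knockout libraries were below control, and library 3 was the lowest of them. With the spread this gave the gene missed the threshold (log2 fold change -1.31, 95% interval -2.35 to -0.28, adjusted p = 0.0554). Without knockout library 3 the log2 fold change was -0.94 (adjusted p = 0.00173) and without knockout library 1 it was -1.62 (adjusted p = 0.045), both past the threshold; DESeq2 and limma-voom also called it (adjusted p = 0.00985 and 0.0308). Over all alternatives its adjusted p ran from 0.00173 to 0.162.

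P-glycoprotein, the classic multidrug exporter, is encoded in mice by the closely related Abcb1a and Abcb1b, between which reads may be split or lost in counting. Abcb1b was at 51.8, 46.9 and 72.1 CPM in knockout and 52.6, 68.3 and 59.8 CPM in control. Abcb1a was at 2.23, 1.96 and 2.27 CPM in knockout and 2.39, 2.16 and 2.49 CPM in control. The groups overlapped for both genes. The log2 fold changes were -0.08 for Abcb1b (95% interval -0.56 to 0.39, adjusted p = 0.774) and -0.12 for Abcb1a (-0.76 to 0.51, adjusted p = 0.741), so changes of a size within these intervals are not excluded for these genes. Over the 10 genes of this role CPM summed to 328, 264 and 302 in knockout and 427, 434 and 460 in control.

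Of the efflux genes without a test, Abcc3, which encodes MRP3, an exporter of conjugated bile salts, held 9, 5 and 22 counts in knockout and 7, 1 and 2 counts in control. Abcb5 and Abcc2 had no count in any library; a count of 0 allows up to 3 counts, or 0.140 to 0.184 CPM by library, for counting error only.

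**Figure D2:**
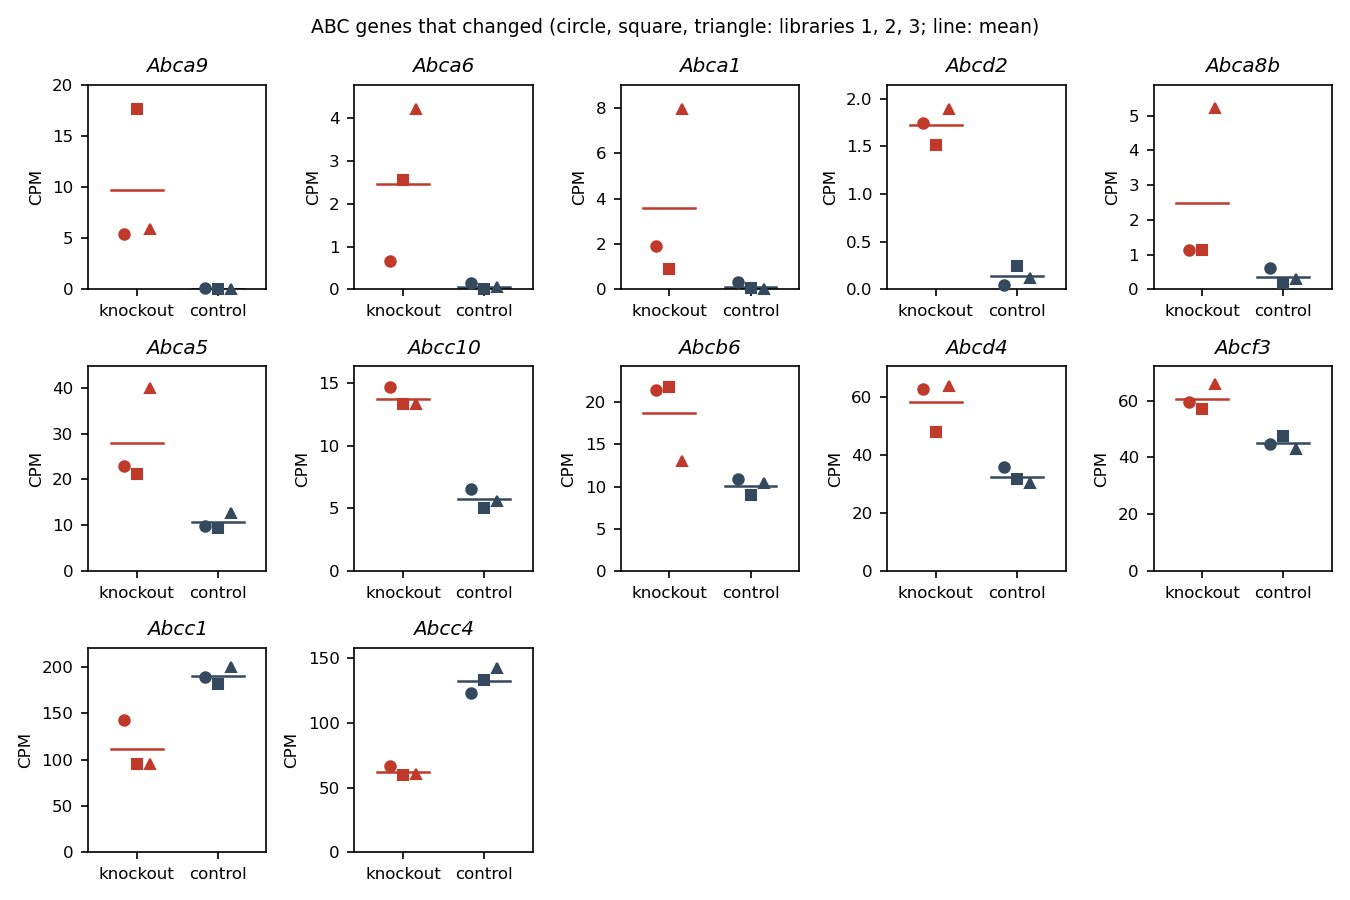
CPM of 12 ABC genes that changed, with HuR knockout left and control right in each panel; symbols are the 3 libraries of a group and lines their means. The vertical axes start at 0 and differ in scale between panels. Abca1, Abca5, Abca6, Abca8b, Abcd2, Abcd4 and Abcf3 are highest in knockout library 3 (triangle), Abca9 is highest in knockout library 2 (square), and no panel has overlapping groups.

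The subfamily A genes Abca5, Abca6, Abca8b and Abca9 rose, from very low control levels except in Abca5. Abca6, Abca8b and Abca9 entered the test through their knockout counts and had to be higher, so their number is no support for a joint rise. These genes and Abca8a belong to a subgroup that is known to sit side by side in the mouse genome. In the human RefSeq annotation (GRCh38.p14) the counterparts ABCA8, ABCA9, ABCA6, ABCA10 and ABCA5 are 5 consecutive protein-coding genes on chromosome 17. Abca9, a lipid transporter gene of this subgroup, was at 5.39, 17.6 and 5.94 CPM in knockout and at 0.140, 0 and 0 CPM in control. Library 2 was the highest in knockout, and the control counts were 3 in all, from control library 1. The summed counts were 196 times higher in knockout (exact 95% counting interval 66.6 to 952; adjusted p = 0.00262). Without knockout library 2 the ratio was 110 (37.0 to 537), without control library 2 it was 125 (42.4 to 606), and without control library 1, where control was at 0, the gene was at least 123-fold higher against 3 counts over the control group. Of the fibroblast markers, Pdgfrb was at 12.6, 51.9 and 50.0 CPM in knockout and 0.0468, 0.0491 and 0 CPM in control, and Col1a1 at 199, 121 and 119 CPM in knockout and 3.84, 0.688 and 4.44 CPM in control, while Lum was at 0. Pdgfra was at 1.91, 1.81 and 8.82 CPM in knockout and 3.74, 2.26 and 2.86 CPM in control, with overlap, and did not pass. Fap, Postn, Dcn and Col1a2 reached at most 0.796 CPM. The part of fibroblast markers in the values of these subfamily A genes was not tested.

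Abca6 was at 0.654, 2.55 and 4.23 CPM in knockout and 0.140, 0 and 0.0608 CPM in control. Its knockout libraries differed several-fold among themselves, yet each was above every control library. The fitted rise was 33.0-fold (log2 fold change 5.04, SE 1.02, adjusted p = 0.0110). It was 21.6-fold without knockout library 3 and 21.9-fold without control library 2. Without control library 1, which left 1 control count, the ratio of counts was 88.5 (15.6 to 3522), and without control library 3 the gene did not pass (adjusted p = 0.0553). Its adjusted p lay between 4.33e-05 and 0.0553 over the alternatives that tested it.

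Abca8b was at 1.14, 1.13 and 5.21 CPM in knockout and 0.608, 0.196 and 0.304 CPM in control. Library 3 stood out among the knockout libraries. The rise was 6.53-fold (log2 fold change 2.71, SE 0.812, adjusted p = 0.0410) and 3.00-fold without knockout library 3 (adjusted p = 0.0437). It did not pass without control library 1, 2 or 3 (adjusted p = 0.0725, 0.141 and 0.136) or by limma-voom (0.0692), within a range of 0.00632 to 0.141. The neighbouring Abca8a, whose reads may be confused with those of Abca8b, held 3 counts over all libraries and was not tested.

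Abca5, whose product is found in lysosomes and late endosomes, was at 22.9, 21.3 and 39.9 CPM in knockout and 9.92, 9.28 and 12.6 CPM in control. Every knockout library was well above control, library 3 most. A log2 fold change of 1.40 was fitted (SE 0.288, adjusted p = 0.0115), or a 2.64-fold rise. Without control library 1 or 2 the adjusted p was 0.0522 and 0.0598, and over all alternatives it lay between 0.000133 and 0.0598, with log2 fold changes from 1.06 to 1.57.

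Of the 12 genes of sterol and phospholipid transport 4 were tested, and 1, Abca1, rose, against 20.3% of all genes tested. No control library reached the filter's minimum for Abca1, so it entered the test through its knockout counts and had to be higher. Abca1 encodes the pump that loads cholesterol and phospholipid onto apolipoprotein A-I and is a known target of the liver X receptors (LXR). It was at 1.91, 0.882 and 7.96 CPM in knockout and 0.328, 0.0491 and 0 CPM in control. Knockout library 3 held most of the counts, and the other knockout libraries were still above control. The fitted rise was 25.4-fold (log2 fold change 4.67, SE 1.22, adjusted p = 0.0266) and 9.87-fold without knockout library 3 (adjusted p = 0.0152). Without control library 1, which left 1 control count, the ratio of counts was 122 (21.6 to 4836). Without control library 2 or 3 the gene did not pass (adjusted p = 0.105 and 0.0879), and its range over the alternatives that tested it was 0.000431 to 0.105. Cd68, a macrophage marker, was also highest in knockout library 3, at 3.11, 1.76 and 36.9 CPM in knockout and 5.80, 2.16 and 3.65 CPM in control, and did not pass. Of the 7 other macrophage markers, Csf1r was lower in every knockout library, at 0.163, 0 and 0.0612 CPM in knockout and 0.468, 0.246 and 0.243 CPM in control, Lyz2 reached at most 0.184 CPM in knockout and was at 0 in control, and Ptprc, Adgre1, Itgam, C1qa and C1qb were at 0 in every knockout library. The part of macrophage RNA in the Abca1 value was not tested.

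The other 3 lipid transporters tested did not pass. Abca7, a phospholipid transporter linked to phagocytosis, was at 61.5, 52.5 and 60.9 CPM in knockout and 39.3, 37.4 and 50.0 CPM in control. Abca2, which is abundant in myelinating cells, was at 46.8, 51.6 and 50.7 CPM in knockout and 63.3, 57.2 and 65.4 CPM in control. Neither gene overlapped between groups, in opposite directions, and neither passed (log2 fold change 0.46 and adjusted p = 0.0581 for Abca7, -0.32 and 0.0761 for Abca2). Without knockout library 3 both passed (adjusted p = 0.040 and 0.0355), within ranges of 0.040 to 0.952 and 0.0236 to 1. By DESeq2 both passed as well (adjusted p = 0.0419 and 0.0236).

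Abca3, the lamellar body lipid transporter of lung surfactant, was at 60.3, 48.2 and 111 CPM in knockout and 87.3, 77.8 and 82.0 CPM in control. Knockout libraries 1 and 2 were below control and library 3 above it. Its log2 fold change was -0.17 (adjusted p = 0.681), and without knockout library 3 it was -0.60 and passed (adjusted p = 0.00437), within a range of 0.00437 to 1.

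The 8 lipid transporter genes without a test were at low levels. Abcg4, a sterol transporter, was at 0.327, 0.441 and 0.857 CPM in knockout and 0.515, 0.147 and 0.243 CPM in control. Abca4, the retinal flippase, was at 0.327, 0.392 and 0.490 CPM in knockout and 0.0936, 0.196 and 0.0608 CPM in control, without overlap. Abcb4, the phosphatidylcholine flippase of bile, reached 0.784 CPM in knockout library 2. Abca12, the keratinocyte lipid transporter, and Abca13 held at most 3 counts in any library, Abcg1, the partner of Abca1 in cholesterol efflux to high-density lipoprotein, at most 2, and Abcg5 and Abcg8 held 1 count each, in control library 1.

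Abcd2, a peroxisomal gene, rose, and Abcd3, another, did not pass. No control library reached the filter's minimum for Abcd2, so it entered the test through its knockout counts and had to be higher. Abcd2 encodes a transporter that brings fatty acyl-CoA into peroxisomes. It was at 1.74, 1.52 and 1.90 CPM in knockout and 0.0468, 0.246 and 0.122 CPM in control, which were 32, 31 and 31 counts against 1, 5 and 2. The knockout libraries were nearly equal, including library 3. The fitted rise was 11.9-fold (log2 fold change 3.58, SE 0.541, adjusted p = 0.00366). Without control library 2, which left 3 control counts, the ratio of counts was 21.1 (6.99 to 104). Abcd3, which encodes PMP70, an abundant peroxisomal membrane protein, was at 44.7, 43.4 and 48.6 CPM in knockout and 37.9, 38.1 and 41.6 CPM in control (log2 fold change 0.22, 95% interval -0.07 to 0.50, adjusted p = 0.198).

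Abcd4 belongs to the same subfamily but works in lysosomes, where it takes part in the release of cobalamin. It was at 62.9, 47.9 and 63.9 CPM in knockout and 35.9, 31.6 and 30.3 CPM in control, all knockout libraries being above control. The log2 fold change was 0.84 (SE 0.160, adjusted p = 0.00862), a 1.79-fold rise. Without control library 2 or 3 the adjusted p was 0.0514 and 0.0522, within a range of 0.000105 to 0.108. Abcb9, a lysosomal peptide transporter, was at 1.74, 2.35 and 5.45 CPM in knockout and 1.83, 2.21 and 0.911 CPM in control, with overlap, and did not pass (log2 fold change 0.93, adjusted p = 0.226).

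Of the mitochondrial genes Abcb6 rose, and Abcb8 and Abcb10 did not pass. Abcb6 encodes a porphyrin transporter placed in mitochondria and in endolysosomes. It was at 21.4, 21.9 and 13.0 CPM in knockout and 10.9, 9.04 and 10.4 CPM in control. Library 3 was the knockout library closest to control. The log2 fold change was 0.89 (SE 0.243, adjusted p = 0.0301), a 1.86-fold rise. The gene did not pass without knockout library 1 or 2 (adjusted p = 0.0717 and 0.0829) or without control library 1, 2 or 3 (0.0811, 0.126 and 0.104), within a range of 0.000603 to 0.177.

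Abcb8 was at 38.1, 37.2 and 14.5 CPM in knockout and 44.9, 47.1 and 48.7 CPM in control (log2 fold change -0.65, adjusted p = 0.197). Every knockout library was below control. Without knockout library 3, by far the lowest for Abcb8, that gene passed at a log2 fold change of -0.31 (adjusted p = 0.0355; range 0.0355 to 0.621). Abcb10, an inner membrane protein needed for heme synthesis, was at 48.0, 57.3 and 33.9 CPM in knockout and 49.0, 55.8 and 54.3 CPM in control, with overlap (log2 fold change -0.19, adjusted p = 0.494).

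The genes without a membrane domain were split: Abcf3 rose, while Abce1, Abcf1 and Abcf2 were lower in every knockout library than in any control library and did not pass. Over all genes tested, 20.3% were higher, and for 27.9% the groups did not overlap with knockout below. The list was chosen with earlier results known, so these counts are not a result about the role. Abce1 splits ribosomes after termination so that they can be used again. Its level was 376, 321 and 288 CPM in knockout and 407, 464 and 438 CPM in control. Abcf1, which takes part in translation initiation, was at 251, 248 and 181 CPM in knockout and 304, 338 and 294 CPM in control. Abcf2 was at 165, 131 and 93.8 CPM in knockout and 192, 218 and 185 CPM in control. Library 3 was the lowest knockout library for all 3 genes. The log2 fold changes were -0.41, -0.46 and -0.61 for Abce1, Abcf1 and Abcf2 (adjusted p = 0.0654, 0.0700 and 0.0668).

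Without knockout library 3 each of these 3 genes passed with a smaller change, the log2 fold changes being -0.32, -0.32 and -0.42 (adjusted p = 0.0315, 0.0228 and 0.0234). Without knockout library 1, Abce1 and Abcf2 passed (adjusted p = 0.0391 and 0.024). DESeq2 called all 3 with all libraries (adjusted p = 0.0137, 0.0224 and 0.0242). Over the alternatives the adjusted p ran from 0.0137 to 1 for Abce1, 0.0224 to 0.944 for Abcf1 and 0.0234 to 0.572 for Abcf2, where the highest came from the test against a 1.5-fold change.

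Abcf3, a relative of yeast Gcn20, was at 59.6, 56.9 and 65.7 CPM in knockout and 44.6, 47.7 and 43.0 CPM in control, and library 3 was its highest. The log2 fold change was 0.43 (SE 0.119, adjusted p = 0.0316), a 1.35-fold rise, and the smallest among the ABC genes that passed. It was lost without knockout library 1 (adjusted p = 0.0565), without control library 1, 2 or 3 (0.109, 0.106 and 0.151) and with no filter on low counts (0.0563), within a range of 0.00718 to 1. The CPM of the 4 genes summed to 851, 757 and 628 in knockout and 948, 1069 and 960 in control, each knockout library below every control library. Most of each sum came from Abce1 and Abcf1, which did not pass.

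**Figure D3:**
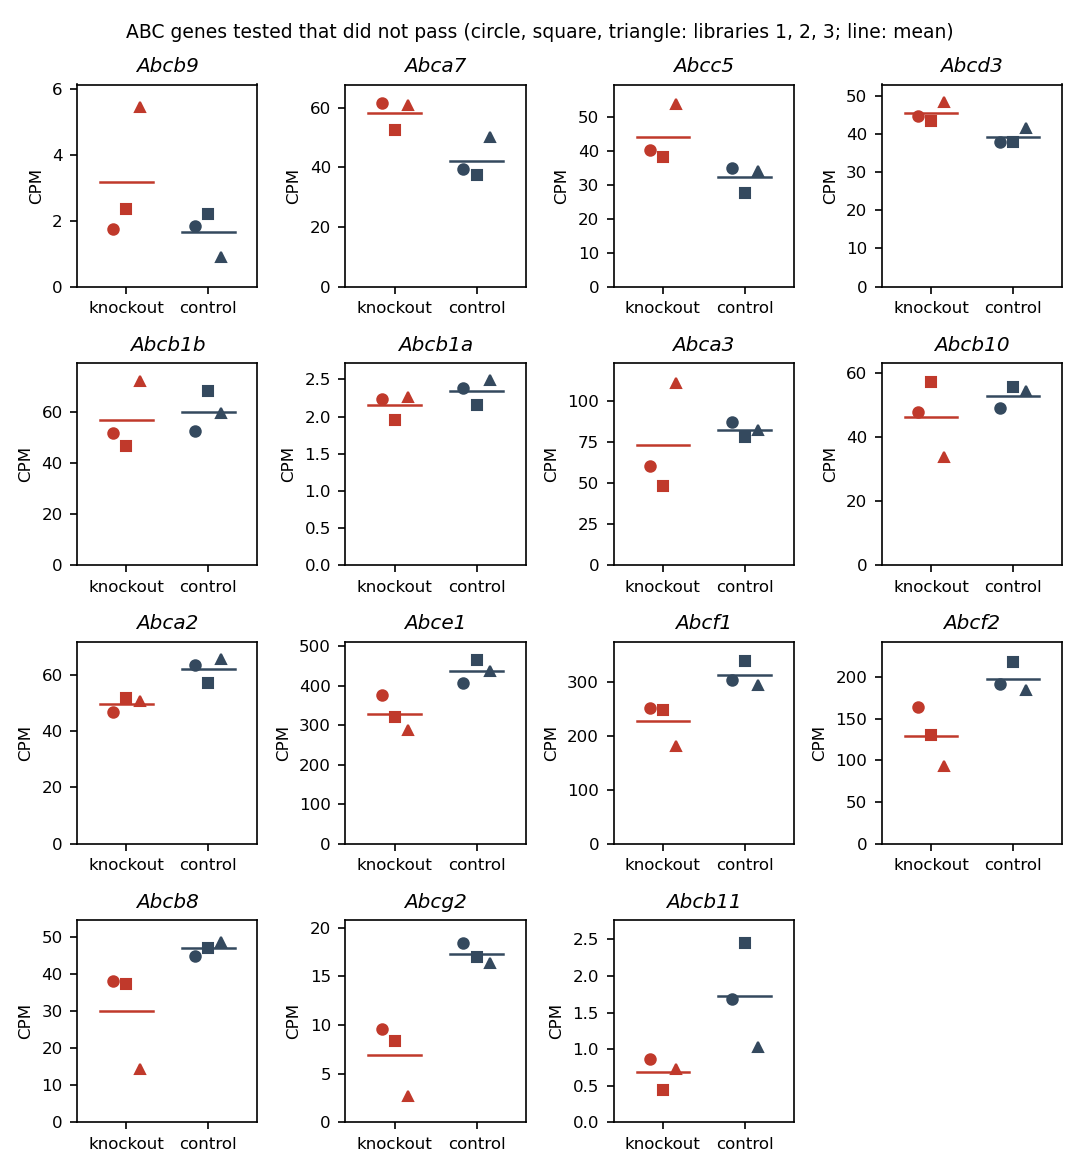
CPM of 15 ABC genes that were tested and did not pass, with HuR knockout left and control right in each panel; symbols are the 3 libraries of a group and lines their means. The vertical axes start at 0 and differ in scale between panels. Abce1, Abcf1, Abcf2, Abcb8 and Abcg2 are below control in every knockout library with library 3 (triangle) the lowest, whereas Abcb1a, Abcb1b, Abca3, Abcb9 and Abcb10 overlap.

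Among the genes with a narrow tissue pattern, Abcb11, the bile salt export pump of liver, was at 0.872, 0.441 and 0.735 CPM in knockout and 1.68, 2.46 and 1.03 CPM in control. The groups did not overlap, and the gene did not pass (log2 fold change -1.34, adjusted p = 0.0633; 0.0457 by DESeq2, within a range of 0.0457 to 0.215). Abca17 and Abcc12 held at most 6 counts in any library, and Abca14, Abca15, Abca16, Abcc6 and Abcg3 had no count. Abcc8 and Abcc9 encode the sulfonylurea receptors, regulatory subunits of ATP-sensitive potassium channels. These 2 rows were at 0 in control library 1 with a count elsewhere and held multiples of 11, which were divided by 11; over all genes 34.6% of those tested changed with the values as deposited. Afterwards Abcc8 held 1 count, in control library 2, and Abcc9 held 1 and 2 counts in knockout libraries 2 and 3; neither was tested with or without the division.

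Across roles, knockout library 3 was the highest knockout library in 8 of the 11 ABC genes that rose (72.7%) and the lowest in 0 of the 2 that fell. Over all genes the same was true of 65.0% of those that rose and 50.5% of those that fell. The groups did not overlap for 24 of the 29 ABC genes tested, with knockout above in 14 and below in 10. Over all genes tested the groups did not overlap with knockout above for 29.7% and below for 27.9%. The 14 include Abca1, Abca6, Abca8b, Abca9 and Abcd2, which entered the test through their knockout counts and had to be higher. The 10 include Abcb11, which entered through its control counts. These counts carry an effect of the filter and are not a result about the family.

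The 3 listed ABC genes whose symbols do not follow the Abc pattern all changed, against 35.7% of all genes tested. They were chosen with earlier results known, so this count is not a result about such genes. Tap1 and Tap2, which carry peptides to MHC class I, were 18.4-fold and 10.2-fold higher in knockout (adjusted p = 0.0102 and 0.00766), 8.33-fold and 5.71-fold without knockout library 3. Tap1 rose 28.0-fold without control library 1 and did not pass without control library 3 (adjusted p = 0.0517). Cftr, the chloride channel mutated in cystic fibrosis and a member of subfamily C, was at 0.109, 0.147 and 0.122 CPM in knockout and 2.90, 3.78 and 3.10 CPM in control. It fell 24.5-fold (log2 fold change -4.61, SE 0.377, adjusted p = 0.000541), with knockout near 0 in every library. No knockout library reached the filter's minimum of about 0.52 CPM, so Cftr entered the test through its control counts and had to be lower.

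Of 9 genes tested that supply or use glutathione, the partner molecule of Abcc1 export, 4 rose and 1 fell, against 20.3% and 15.4% of all genes tested. Gclc, the catalytic subunit of the enzyme that limits glutathione synthesis, was at 275, 353 and 385 CPM in knockout and 51.1, 38.1 and 46.1 CPM in control, a 7.49-fold rise (adjusted p = 0.000331). Gclm, the modifier subunit of that enzyme, was at 82.9, 87.7 and 36.1 CPM in knockout and 114, 115 and 106 CPM in control. Its groups did not overlap, with knockout below, and it did not pass (log2 fold change -0.69, adjusted p = 0.138). The glutathione transferase gene Gstm1 rose 9.06-fold (adjusted p = 0.000539). Gsr, glutathione reductase, was at 190, 163 and 102 CPM in knockout and 350, 357 and 345 CPM in control, a 2.31-fold fall (adjusted p = 0.00924). Without control library 2 or 3 only 2 genes of this list rose, and without knockout library 1 or 3, 2 fell. Because the list was chosen with earlier results known, its counts are not a result about glutathione. Of the xenobiotic regulators 1 of 4 tested rose, a share near the 20.3% of all genes tested: Ahr, the aryl hydrocarbon receptor, by 1.85-fold (adjusted p = 0.0272), a call lost without knockout library 2 (0.0589) and without control library 1, 2 or 3 (0.0705, 0.11 and 0.112). Nfe2l2, which encodes NRF2, had a log2 fold change of 0.37 (adjusted p = 0.0642; 0.0459 without knockout library 3, where 3 of the 4 regulators rose).

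Of 12 genes tested for LXR and sterol handling, the setting in which Abca1 works, 5 rose and none fell, against 20.3% and 15.4% of all genes tested. Pltp, the phospholipid transfer protein, was at 19.9, 31.4 and 29.1 CPM in knockout and 8.85, 7.81 and 8.32 CPM in control (3.22-fold, adjusted p = 0.00201). Npc2, which hands cholesterol on inside lysosomes, rose 2.82-fold (adjusted p = 0.0123) and Srebf1, a lipogenic transcription factor gene, 1.75-fold (adjusted p = 0.0207). Npc2 did not pass without control library 2 or 3 (0.0615 and 0.0585), nor Srebf1 without knockout library 2 (0.0514) or control library 1, 2 or 3 (0.0837, 0.0902 and 0.0735). The list held 8 higher genes without knockout library 3, 3 without knockout library 2, and 2, 1 and 1 without control library 1, 2 or 3. It was chosen with earlier results known, so its counts are not a result about LXR or sterol handling.

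Of 11 genes tested in a peroxisomal list, 4 rose and none fell, against 20.3% and 15.4% of all genes tested. Besides genes of beta-oxidation, which uses the cargo of Abcd2, it holds Phyh and Hacl1 of alpha-oxidation. The peroxisome assembly genes Pex3, Pex5, Pex14 and Pex19 are in it too. Without knockout library 3, and by DESeq2, 5 rose and 1 fell. Scp2, a lipid transfer protein and thiolase gene, was at 60.3, 61.8 and 57.4 CPM in knockout and 36.6, 32.5 and 31.6 CPM in control (1.78-fold, adjusted p = 0.00318). Acox3, an oxidase of branched chains, rose 3.49-fold (adjusted p = 0.0109) and Phyh, which starts phytanic acid breakdown, 3.05-fold (adjusted p = 0.0183). Acox3 did not pass without control library 2 or 3 (0.0553 and 0.0506), nor Phyh without control library 1, 2 or 3 (0.0600, 0.0811 and 0.0667). The number of higher genes was 2, 1 and 1 without control library 1, 2 or 3. As this list was chosen with earlier results known, its counts are not a result about peroxisomes.

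In mitochondrial heme and iron-sulfur synthesis 2 of 13 genes tested rose and 2 fell, shares near or below the 20.3% and 15.4% of all genes tested. Urod, a heme synthesis enzyme, rose 1.55-fold (adjusted p = 0.00790; 0.0526 without control library 2). Alad, an earlier enzyme of that pathway, was at 36.7, 36.4 and 18.1 CPM in knockout and 83.8, 77.8 and 69.5 CPM in control, a 2.53-fold fall (adjusted p = 0.0122). Slc25a37, mitoferrin 1, which Abcb10 is known to stabilise, fell 2.00-fold (adjusted p = 0.0344), a call lost without knockout library 1 or 2 (0.0698 and 0.0504) or control library 1, 2 or 3 (0.0775, 0.0712 and 0.112). Without knockout library 1, 1 gene rose and 1 fell; without control library 2, none rose and 1 fell; and without control library 1 or 3, 1 rose and 1 fell.

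Of 10 genes that work with Abce1 and with Gcn20-type proteins in ribosome recycling and GCN2 signalling, none rose and 3 fell, against 20.3% and 15.4% of all genes tested. Denr, a ribosome recycling factor, was at 81.4, 72.9 and 46.1 CPM in knockout and 147, 139 and 131 CPM in control (2.08-fold lower, adjusted p = 0.0116). The release factor genes Etf1 and Gspt1 fell 1.51-fold and 1.62-fold (adjusted p = 0.0322 and 0.0420), and neither passed without knockout library 2 (0.0729 and 0.0654) or any 1 control library (0.0631 to 0.113 for Etf1 and 0.0906 to 0.127 for Gspt1). Pelo, which works with Abce1 on stalled ribosomes, was at 13.4, 12.9 and 12.9 CPM in knockout and 17.1, 17.3 and 15.9 CPM in control and did not pass (log2 fold change -0.36, adjusted p = 0.0948). Without knockout library 1, 5 fell; without knockout library 3, 4 fell and 1 rose; and without knockout library 2 or any 1 control library, 1 fell. The median log2 fold change of this list was -0.39, against 0.03 over all genes tested. Since the list was chosen with earlier results known, its counts and median are not a result about ribosome recycling. Of the potassium channel genes that pair with the sulfonylurea receptors, Kcnj11 was at 0 in every library and Kcnj8 held 2, 30 and 27 counts in knockout and 1 count in each control library. Kcnj8 did not reach the filter with all libraries. Without knockout library 1 it was tested and rose, and without any 1 control library it was tested and did not pass. In each of these runs Kcnj8 entered the test through knockout libraries 2 and 3 and had to come out higher.

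**Figure D4:**
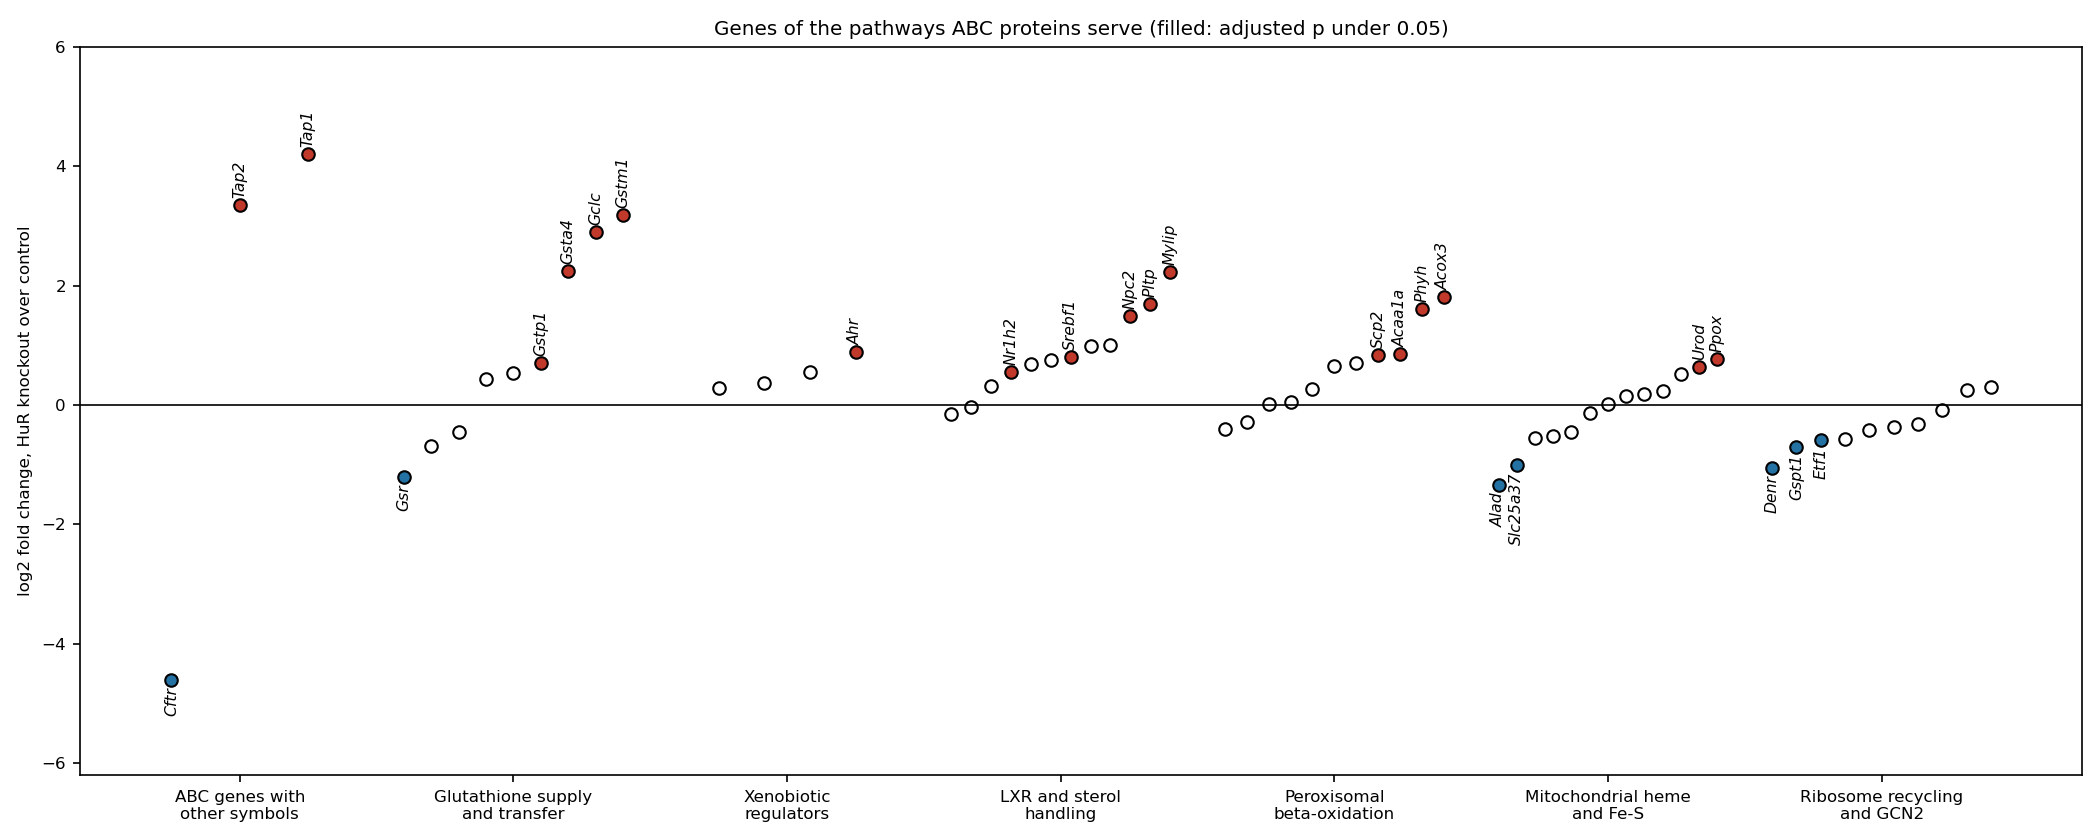
Log2 fold change of HuR knockout over control (vertical axis) for the genes tested in each list of partners of the ABC proteins, sorted within a list; filled and named points passed the threshold of 0.05, in red where higher and in blue where lower. In the LXR list 5 of 12 and in the peroxisomal list 4 of 11 points are filled and all lie above 0, and in the ribosome recycling list the 3 filled points lie below 0. Over all genes tested, 20.3% were higher and 15.4% lower. The lists were chosen with earlier results known, so these counts are not a result about them.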

How the data were processed

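RNA of 3 HuR knockout and 3 control libraries of MOC2 cells was sequenced as mRNA libraries (SMARTer kit, per the labels' protocols). The authors deposited whole-number counts per gene symbol. STAR 2.7.1a, featureCounts and hg38 are named per the submitters' processing notes, with no role stated. Not given in the sources used here were strand setting, annotation and filters. The symbols are mouse; reads of near-identical or antisense genes may be split.

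All 1704 gene rows that were at 0 in control library 1 but not elsewhere held multiples of 11 and were divided by 11; no label describes a step that gives this. CPM relate counts to the TMM-scaled library total. Counts were fitted with edgeR 4.0.16 in R 4.3.3 (filterByExpr, which asked for about 0.52 CPM in 3 libraries; TMM scaling; robust quasi-likelihood test; Benjamini-Hochberg adjustment over all genes tested). Standard errors came from the fold change and the F statistic. The biological coefficient of variation was 28.0%. Where a group held 1 to 3 counts, the ratio of counts has an exact 95% interval, and a group at 0 was set to 3 counts; both cover counting error only. With totals of 16158516 to 21294330 counts, genes below this minimum were left out of the test by the filter. No 2 libraries of a group agreed within sampling noise (chi-square per degree of freedom from 8.96 to 186).

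The members and lists were chosen with earlier results of these data known. The values of 2 tested members, which stay in the counts, are not reported here. Named are the other members that passed, the 8 not passed with the highest mean CPM and others whose groups did not overlap. Of each partner list, up to 3 genes with the smallest p are named. Abcb1a, Abcb9, Gclm, Nfe2l2, Pelo and the untested genes were picked after their values were seen. Alternatives used DESeq2 1.42.0, limma 3.58.1 (voom), other scalings, filters and row treatments, a replicate block, a test against a 1.5-fold change, and each library left out. The procedure was tested on simulated data.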

Additional observations from a re-analysis of the deposited data

How the results depend on the processing

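The 11 higher and 2 lower ABC genes were the same genes with the values as deposited, without the divided rows, and with RLE or upper-quartile scaling. The test against a 1.5-fold change gave 7 higher and 1 lower ABC genes and 2280 changed genes over the table (4392 otherwise). DESeq2 gave 8 lower and 12 higher; it added Abca2, Abca7, Abcb11, Abce1, Abcf1, Abcf2 and Abcg2. Leaving out 1 library gave 5 to 12 higher and 1 to 9 lower ABC genes and 2312 to 6021 changed genes over the table. Without knockout library 2 the log2 fold changes of Abca3 and Abcb1b turned to 0.055 and 0.043, neither of them past the threshold; over the left-out libraries they ran from -0.60 to 0.055 and from -0.29 to 0.043. Limma-voom gave 11 higher and 3 lower, no filter 10 and 2, and a minimum of 1 CPM in 3 libraries 9 and 2, where Abca1 and Abca6 were no longer tested. The deviations of same-numbered libraries 1, 2 and 3 from their group means correlated at -0.0487, 0.256 and 0.0219. Knockout library 2 correlated best with control library 2, while knockout libraries 1 and 3 correlated best with control libraries 2 and 1 (0.0921 and 0.192). Deviations within a group of 3 depend on each other, so these values cannot decide whether the numbers pair the libraries. With a replicate block 8 ABC genes were higher and 3 lower, 3591 genes changed over the table, Abca8b, Abcb6 and Abcf3 did not pass and Abcg2 did. Genes under about 0.52 CPM in 3 libraries did not pass the filter and are described by their counts.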
